A study of Mus musculus with 6 samples.

Results

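CXC chemokines are small secreted proteins that steer leukocytes and other cells along gradients, and the 10 genes described here are Cxcl1, Cxcl2, Cxcl5, Cxcl9, Cxcl10, Cxcl12, Cxcl13, Cxcl14, Cxcl16 and Ackr3, the last of which encodes a scavenger receptor. They were matched by gene symbol, and no measured value enters the rule. The list itself was chosen with earlier results of these data known. Of the 10, 9 were listed among the 23407 genes of the table, and the expression of Cxcl13 was not analysed here. A mean of at least 10 normalised reads over the libraries was needed for a test, which 7 of the 10 reached, among 14707 genes in all; Cxcl2 and Cxcl9 lay below it. Expression was measured by bulk RNA sequencing of dermal fibroblasts from the back skin of 12-week-old mice, with 3 libraries labelled TSP2KO, for lack of thrombospondin-2 (gene Thbs2), and 3 labelled WT. All of them were primary cells at passage 1, grown for some days in medium with serum so that fibroblasts would prevail. The strain and the knockout construct are not stated in the labels, and neither is whether each library came from its own animal. The p-values therefore measure only the spread between libraries, part of which may be technical.

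The cysteine pairs of CXC chemokines enclose a single residue, which gives the family its name. Members with a glutamate-leucine-arginine (ELR) motif before the cysteines, here Cxcl1, Cxcl2 and Cxcl5, act on Cxcr2 and draw neutrophils, and their transcription is classically driven by NF-kappaB after interleukin-1 or tumour necrosis factor. Cxcl9 and Cxcl10 are induced by interferons and act on Cxcr3 of activated lymphocytes. Cxcl12 is made steadily by fibroblasts and other stromal cells, acts on Cxcr4, and is removed from the tissue by Ackr3. Cxcl14 is made in skin at rest, and Cxcl16 is a membrane-bound ligand of Cxcr6 that can be shed.

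Several facts of the whole series bear on what follows. Estimated depth was 14776502 to 20521968 reads in TSP2KO libraries and 18266754 to 34599855 in WT libraries. Thbs2 had 5177, 6635 and 4891 normalised reads in TSP2KO 1, TSP2KO 2 and TSP2KO 3, and 122061 and 116720 in WT 1 and WT 2, but 8841 in the library labelled WT 3. That library goes against its label in the targeted gene, and each tested member is therefore given with it and without it. Fibroblast markers summed over 9 genes to 165125 to 263092 normalised reads in TSP2KO and 203923 to 389817 in WT, with collagens, Pdgfrb and Vim carrying most of the sum in TSP2KO. Of the 9, 3 (Dcn, Lum and Pdgfra) were lower in TSP2KO without overlap, and the mean log2 difference of the list from WT 1 and WT 2 was -1.20, -1.21 and -1.51 in TSP2KO 1, TSP2KO 2 and TSP2KO 3 and -0.74 in the library labelled WT 3. The sum over 16 listed macrophage markers was 749 to 869 in TSP2KO and 3498 to 6229 in WT. Keratinocyte markers summed to 8674, 8465 and 298 in TSP2KO 1, TSP2KO 2 and TSP2KO 3, and to 1146, 452 and 25938 in WT 1, WT 2 and the library labelled WT 3. In bulk RNA, fewer cells of a type and less RNA per cell cannot be told apart.

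Stretches of promoter are shown for 4 of the members, from RefSeq on GRCm38.p6. Each reaches from 250 bases before the start of the gene to 50 after it. Cxcl2 is among them although it was not tested, and the window of Ackr3 is not shown. Sequences run 5′ to 3′ on the strand of the gene. For Cxcl1, Cxcl2 and Cxcl10, capitals mark only matches on either strand to the NF-kappaB (kappaB) letters GGANTTTCC or GGGNNTTCC, and in Cxcl10 also to the interferon response letters GAAANNGAA. The Cxcl12 window held neither these nor the hypoxia response letters ACGTG or GCGTG and is in lower case throughout. No match in such a window says only that these letters are not in it.
Cxcl1 (chr5:90890995-90891294, plus strand): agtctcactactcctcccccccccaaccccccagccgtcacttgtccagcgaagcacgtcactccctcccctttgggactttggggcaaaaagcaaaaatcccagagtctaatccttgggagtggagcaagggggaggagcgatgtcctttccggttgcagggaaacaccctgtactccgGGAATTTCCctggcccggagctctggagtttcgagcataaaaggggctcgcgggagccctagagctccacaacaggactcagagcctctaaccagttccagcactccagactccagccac
Cxcl2 (chr5:90903649-90903948, plus strand): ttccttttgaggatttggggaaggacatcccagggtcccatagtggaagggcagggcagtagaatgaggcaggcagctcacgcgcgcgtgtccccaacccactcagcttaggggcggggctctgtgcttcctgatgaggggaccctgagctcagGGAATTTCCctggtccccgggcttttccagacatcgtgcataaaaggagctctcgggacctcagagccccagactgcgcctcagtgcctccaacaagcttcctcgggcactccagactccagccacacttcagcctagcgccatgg
Cxcl10 (chr5:92348840-92349139, minus strand): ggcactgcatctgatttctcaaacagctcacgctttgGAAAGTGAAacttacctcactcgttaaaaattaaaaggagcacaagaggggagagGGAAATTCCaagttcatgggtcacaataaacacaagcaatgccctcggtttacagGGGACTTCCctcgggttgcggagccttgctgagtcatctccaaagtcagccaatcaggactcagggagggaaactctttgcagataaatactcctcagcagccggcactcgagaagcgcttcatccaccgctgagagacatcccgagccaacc
Cxcl12 (chr6:117168285-117168584, plus strand): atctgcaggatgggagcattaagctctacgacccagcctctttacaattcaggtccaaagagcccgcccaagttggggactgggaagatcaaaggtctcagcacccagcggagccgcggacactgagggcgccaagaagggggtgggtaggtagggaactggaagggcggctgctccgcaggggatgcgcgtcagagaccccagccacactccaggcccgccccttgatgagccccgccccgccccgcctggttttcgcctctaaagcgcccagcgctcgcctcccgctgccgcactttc

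Cxcl1 and Cxcl2 each held the run GGAATTTCC once, beginning 70 bases before the start of Cxcl1 and 96 bases before that of Cxcl2. Of 32851 promoters of the same length, 1.25% held GGANTTTCC and 7.001% held either kappaB form. Cxcl10 held both forms, at 158 and 103 bases before its start, and an interferon response match at 213 bases, a motif found in 8.56% of promoters. The Cxcl9 window, not shown, held GGGNNTTCC at 2 positions and GAAANNGAA at 1. The windows of Ackr3 and Cxcl14 held no kappaB match, while that of Cxcl14 held GAAANNGAA once. The hypoxia response letters GCGTG, in 32.4% of promoters, stood in the windows of Cxcl2, Cxcl10, Cxcl13, Cxcl14 and Ackr3, and ACGTG, in 19.6%, in that of Cxcl1. Of the 10 genes, 8 had an entry, with none for Cxcl5 and Cxcl16. A match to letters is a description of the sequence and does not show that a factor binds there.

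Lower values in TSP2KO prevailed among the members, with the smallest p-values in Ackr3, Cxcl12 and Cxcl5 and the largest fold changes in Cxcl5, Cxcl12 and Cxcl1, while Cxcl14 alone had a higher value. With all 6 libraries, none of the 7 tested members passed the threshold, a Benjamini-Hochberg adjusted p under 0.05 by limma over all genes tested. This stands beside 9 genes lower (0.0612%) and 0 higher (0%) among the 14707. At an unadjusted p under 0.05, 5 of the 7 members were lower and 0 higher, against 6.09% of all tested genes lower and 3.66% higher; by limma-voom no gene passed after adjustment. Without the library labelled WT 3, 3 members passed, all lower (Cxcl5, Cxcl12 and Ackr3), where 2.75% of all tested genes passed as lower and 2.43% as higher. Among the 7 tested members the groups did not overlap for 4 that were lower and 1 that was higher, against 8.27% and 5.9% of all tested genes. The groups of the untested Cxcl2 and Cxcl9 did not overlap either, at levels near or below the limit of detection. The median log2 fold change of the 7 tested members was -1.91, while it was -0.01 over all tested genes. Without the library labelled WT 3 these medians were -1.59 and -0.03. Because the members were chosen with earlier results of these data known, these shares and medians cannot be read as an independent excess.

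**Figure D1:**
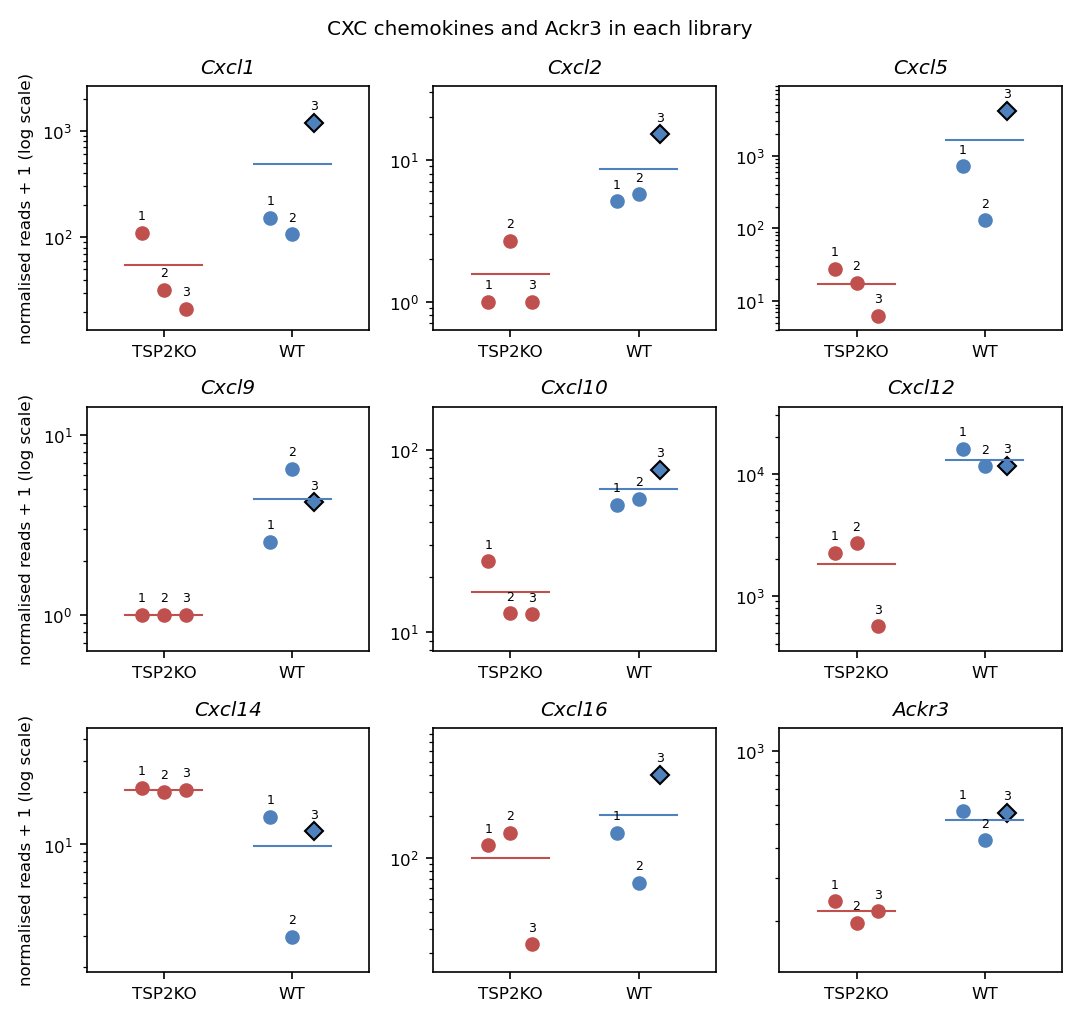
Normalised reads plus 1 on a log axis for the 9 listed genes, with TSP2KO on the left and WT on the right of each panel; points are libraries numbered by replicate, lines are group means, and the diamond is the library labelled WT 3. Groups are apart for Cxcl12 and Ackr3, and the diamond is the highest point of Cxcl1 and Cxcl5, at 1190 and 4124 normalised reads.

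Cxcl12 (chromosome 6, 117168535 to 117181367, plus strand, mm10) was the most abundant member by normalised reads in every library. It had 2252, 2677 and 559 normalised reads in TSP2KO 1, TSP2KO 2 and TSP2KO 3, against 15965, 11471 and 11594 in WT 1, WT 2 and the library labelled WT 3. The groups were far apart, the lowest WT library lying above the highest TSP2KO library, and TSP2KO 3 was well below the other two. The mean was 1830 ± 1121 in TSP2KO and 13010 ± 2560 in WT (SD, n = 3 each). Fitted on the mean of log2(value + 1), as are all fold changes here, and not on these arithmetic means, the log2 fold change was -3.10 (SE 0.56), or 8.57-fold lower. This missed the threshold (limma adjusted p = 0.138; unadjusted p = 0.000804, the 85th smallest of all tested genes). With the library labelled WT 3 left out, the log2 fold change was -3.17 (SE 0.64) and passed (limma adjusted p = 0.0407, in a range of 0.0407 to 0.541 over all alternatives).

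The library labelled WT 3 resembled the other WT libraries in Cxcl12, although its Thbs2 was low. TSP2KO 1, TSP2KO 2 and TSP2KO 3 stood at -2.59, -2.34 and -4.59 from the mean of WT 1 and WT 2 on the log2 scale, and the library labelled WT 3 at -0.22. The SD of Cxcl12 within WT was 0.27 on the log2 scale, and 65.2% of tested genes spread more. Without TSP2KO 3 the log2 fold change was -2.39, the smallest among the fits with a library left out. The sums of macrophage markers, given above, separate the same groups of libraries. The fibroblast genes Dcn and Lum, which encode matrix proteoglycans, do so too, as does Pdgfra. The other fibroblast markers overlapped between the groups. Dcn had 12200, 11095 and 2368 normalised reads in TSP2KO 1, TSP2KO 2 and TSP2KO 3, against 50984, 55417 and 38395 in WT 1, WT 2 and the library labelled WT 3. Lum had 1513, 1385 and 86.4 in TSP2KO 1, TSP2KO 2 and TSP2KO 3, against 6822, 7501 and 3675 in WT 1, WT 2 and the library labelled WT 3. Both were lowest in TSP2KO 3, as Cxcl12 was. Among the TSP2KO libraries, Col1a1, Col1a2, Col3a1, Pdgfrb and Thy1 were instead highest in TSP2KO 3. Pdgfra and Vim in TSP2KO 3 lay between TSP2KO 1 and TSP2KO 2. The part of these markers in the Cxcl12 values was not tested.

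Ackr3 (chromosome 1, 90203980 to 90216751, plus strand), which binds Cxcl12 and carries it into the cell for degradation, was also lower in TSP2KO, and it had the smallest p of the members. Its values were 240, 196 and 219 normalised reads in TSP2KO 1, TSP2KO 2 and TSP2KO 3, against 566, 430 and 559 in WT 1, WT 2 and the library labelled WT 3. Both groups were tight, and they did not overlap. Ackr3 had a log2 fold change of -1.24 (SE 0.20), 2.36-fold lower (limma adjusted p = 0.111). With the library labelled WT 3 left out, this was -1.18 (SE 0.21) and passed (limma adjusted p = 0.0314, in a range of 0.0314 to 0.452 over all alternatives).

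The low Cxcl12 value of TSP2KO 3 had no counterpart in Ackr3. TSP2KO 3, which had the lowest Cxcl12, had an Ackr3 value between those of TSP2KO 1 and TSP2KO 2. Per kilobase of exon, Cxcl12 had 275, 327 and 68.4 normalised reads in TSP2KO 1, TSP2KO 2 and TSP2KO 3, beside 71.7, 58.5 and 65.4 for Ackr3. In WT 1, WT 2 and the library labelled WT 3 the levels per kilobase were 1953, 1403 and 1418 for Cxcl12 and 169, 128 and 167 for Ackr3. In TSP2KO 3 the levels of ligand and scavenger transcript per kilobase were close to each other. In the other 5 libraries Cxcl12 was well above Ackr3. The closeness depends on dividing by all annotated exon bases, 8176 for Cxcl12 and 3348 for Ackr3. Before that division TSP2KO 3 had 559 normalised reads for Cxcl12 and 219 for Ackr3.

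**Figure D2:**
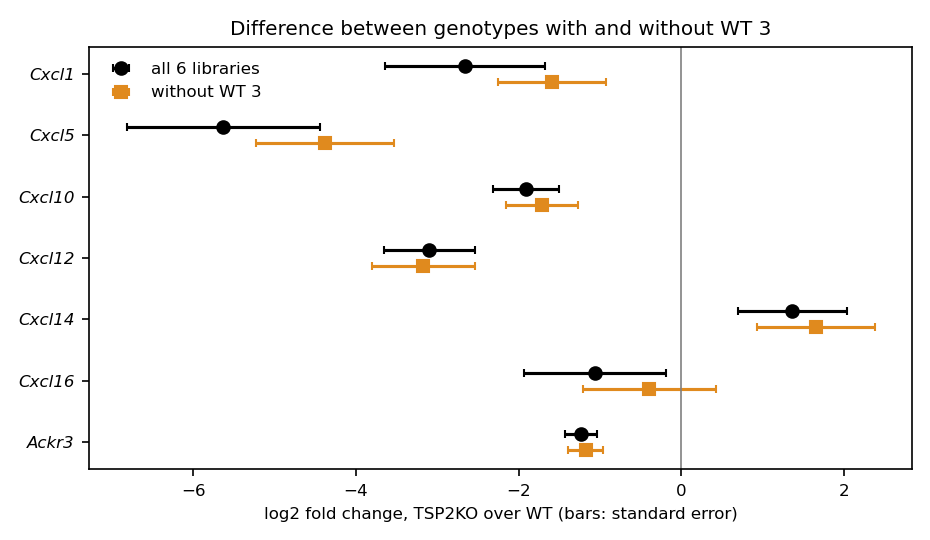
Log2 fold change of TSP2KO over WT for the 7 tested members, with bars of 1 standard error, from all 6 libraries (circles) and without the library labelled WT 3 (squares). Cxcl12 and Ackr3 hardly move between the fits, while Cxcl1 goes to -1.59 and Cxcl5 to -4.38 when that library is left out.

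Cxcl5 and Cxcl1 were the tested members with the widest spread within WT, at an SD of 2.49 and 1.88 on the log2 scale. Cxcl5 (chromosome 5, 90759360 to 90761624, plus strand), a neutrophil attractant, had 27.0, 16.8 and 5.34 normalised reads in TSP2KO 1, TSP2KO 2 and TSP2KO 3, against 717, 129 and 4124 in WT 1, WT 2 and the library labelled WT 3. The TSP2KO values correspond to an estimated 47, 30 and 6 reads. Every WT library was above every TSP2KO library, but the WT libraries themselves differed widely. The mean was 16.4 ± 10.8 in TSP2KO and 1657 ± 2157 in WT (SD, n = 3 each). Fitted on the log2(value + 1) scale, where single high libraries weigh less than in these means, the log2 fold change was -5.63 (SE 1.19), or 49.6-fold lower (limma adjusted p = 0.175). On the log2(value + 10) scale the log2 fold change was -4.92. Among the 14707 tested genes, 3 had a more negative log2 fold change on the log2(value + 1) scale. With the library labelled WT 3 left out, it was -4.38 (SE 0.85), 20.8-fold lower, and passed (limma adjusted p = 0.0386, in a range of 0.0386 to 0.562 over all alternatives).

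Cxcl1 (chromosome 5, 90891241 to 90893115, plus strand), the mouse counterpart of the human GRO chemokines, had 109, 31.3 and 20.5 normalised reads in TSP2KO 1, TSP2KO 2 and TSP2KO 3, against 151, 106 and 1190 in WT 1, WT 2 and the library labelled WT 3. The groups overlapped, since TSP2KO 1 lay above WT 2. Cxcl1 was 6.34-fold lower in TSP2KO with all libraries, a log2 fold change of -2.66 (SE 0.98; limma adjusted p = 0.435). With the library labelled WT 3 left out, it was 3.01-fold lower, a log2 fold change of -1.59 (SE 0.66; limma adjusted p = 0.199, in a range of 0.199 to 0.873 over all alternatives). Cxcl2, a close relative of Cxcl1, was near the limit of detection. It had 0, 1.68 and 0 normalised reads in TSP2KO 1, TSP2KO 2 and TSP2KO 3, an estimated 0, 3 and 0 reads, against 4.12, 4.71 and 14.1 in WT 1, WT 2 and the library labelled WT 3, an estimated 8, 12 and 22 reads. The Cxcl2 groups did not overlap, and no test was made at this level.

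All ELR members had their highest value in the library labelled WT 3. Its Cxcl5 was 9.75-fold and its Cxcl1 9.23-fold the mean of WT 1 and WT 2, and its Cxcl2 was 3.20-fold. On the log2 scale its Cxcl5 lay 3.75 above that mean, the 234th largest such excess of all tested genes, and its Cxcl1 lay 3.22 above it, the 289th. Within WT, 1.43% of tested genes had a larger SD on the log2 scale than Cxcl5 and 2.53% a larger one than Cxcl1. This library was the highest of the 6 for 5 of the 9 listed members, against 21.7% of all tested genes. Cxcl2, 1 of these 5, was not tested, while the share covers tested genes only.

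The ELR genes lie side by side within 146579 bases of chromosome 5, with the relatives Ppbp, Pf4 and Cxcl3 between Cxcl5 and Cxcl1. Ppbp and Pf4, known as platelet chemokines, were each at 12.2 normalised reads in the library labelled WT 3. In the other 5 libraries Ppbp lay between 0 and 0.575 and Pf4 between 0 and 2.58. Cxcl3, another ELR chemokine, had 10.9 normalised reads in the library labelled WT 3 and between 0 and 1.03 elsewhere. All 6 genes listed in this stretch thus had their highest value in the same library. Keratinocyte markers were highest there too, at a sum of 25938 normalised reads. So were endothelial, melanocyte and adipocyte markers, at sums of 5210, 594 and 842. The sums of fibroblast, macrophage, dendritic cell, lymphocyte, platelet, pericyte and Schwann cell markers were not highest in this library. In TSP2KO 1 and TSP2KO 2 keratinocyte markers summed to 8674 and 8465, above the 1146 and 452 of WT 1 and WT 2. The 5 listed neutrophil markers summed to 47.1, 81.1 and 8.01 in TSP2KO 1, TSP2KO 2 and TSP2KO 3, against 9.27, 3.14 and 88.5 in WT 1, WT 2 and the library labelled WT 3. Of these 5, S100a9 and Camp were highest in the library labelled WT 3, while S100a8 and Mpo were highest in a TSP2KO library and Csf3r in WT 1. The part of any of these markers in the ELR values was not tested. Platelet and megakaryocyte markers, of which 3 of 5 were listed, summed to 7.39, 16.6 and 20.7 in TSP2KO 1, TSP2KO 2 and TSP2KO 3. In WT 1, WT 2 and the library labelled WT 3 they summed to 14.4, 19.6 and 16.5. The part of these markers in the Ppbp and Pf4 values was not tested.

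**Figure D3:**
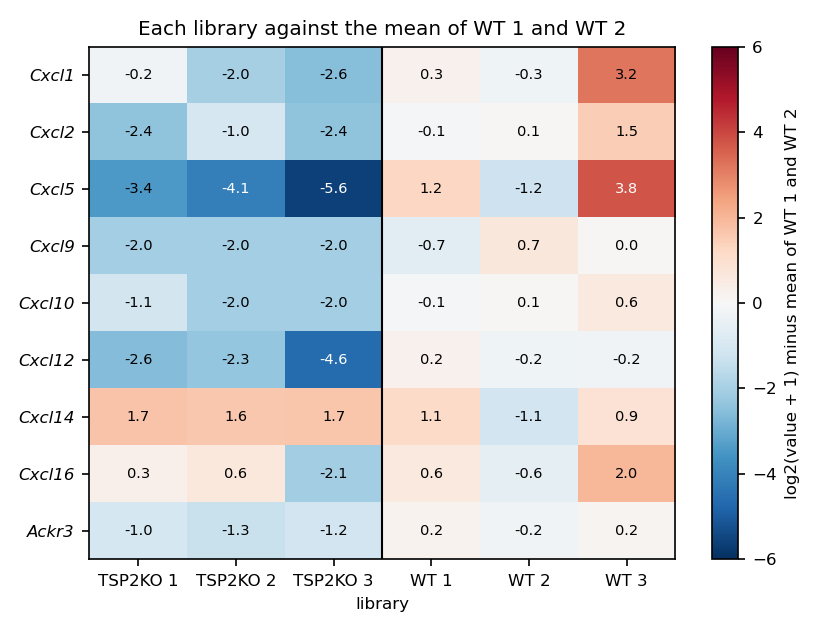
Log2(value + 1) of the 9 listed genes in each library minus the mean of WT 1 and WT 2, with TSP2KO libraries on the left of the line and WT on the right; blue is below and red above. The library labelled WT 3 is high for Cxcl1 (3.22), Cxcl5 (3.75) and Cxcl16 (2.01) but near that mean for Cxcl12 (-0.22) and Ackr3 (0.18).

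Of the interferon-induced members, Cxcl10 (chromosome 5, 92346638 to 92348889, minus strand) had 23.6, 11.7 and 11.6 normalised reads in TSP2KO 1, TSP2KO 2 and TSP2KO 3, against 48.9, 53.0 and 77.0 in WT 1, WT 2 and the library labelled WT 3. All WT libraries were above all TSP2KO libraries at these low levels, which correspond to an estimated 13 to 41 reads in TSP2KO and 95 to 135 in WT. Cxcl10 was 3.77-fold lower, a log2 fold change of -1.91 (SE 0.40; limma adjusted p = 0.175), which became -1.72 with the library labelled WT 3 left out (limma adjusted p = 0.0717, in a range of 0.0717 to 0.554 over all alternatives). Cxcl10 lies wholly within Art3 on the other strand, and although the library kit marks strand, how the counting treated strand is not stated in the sources used here, so some of its reads could belong to Art3. Art3 itself had 232, 97.9 and 41.8 normalised reads in TSP2KO 1, TSP2KO 2 and TSP2KO 3, and 195, 193 and 183 in WT 1, WT 2 and the library labelled WT 3.

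Cxcl9 (chromosome 5, 92321347 to 92328079, minus strand) was at 0 in all 3 TSP2KO libraries, where a count of 0 allows up to 3 reads, or 1.68 to 2.67 normalised reads. WT 1, WT 2 and the library labelled WT 3 had 1.55, 5.49 and 3.21 normalised reads, an estimated 3, 14 and 5 reads. WT 1 lay below that limit, so a difference between WT 1 and TSP2KO was not detectable at this depth.

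Cxcl14 (chromosome 13, 56288643 to 56296551, minus strand), a chemokine of resting epithelium and stroma, was the only member with a positive log2 fold change. It had 20.1, 19.02 and 19.6 normalised reads in TSP2KO 1, TSP2KO 2 and TSP2KO 3, against 13.4, 1.96 and 10.9 in WT 1, WT 2 and the library labelled WT 3. The TSP2KO libraries were nearly alike and all above WT, where WT 2 was lowest with an estimated 5 reads. Its log2 fold change of 1.37 (SE 0.67) did not pass (limma adjusted p = 0.589), and it was 1.66 (SE 0.72) without the library labelled WT 3 and 0.65 with WT 2 left out. The WT mean of Cxcl14, 8.75 normalised reads, was itself under the minimum of 10 for a test, which the gene reached through TSP2KO.

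Cxcl16 (chromosome 11, 70453983 to 70459984, minus strand) showed no separation of the groups. It had 122, 151 and 22.3 normalised reads in TSP2KO 1, TSP2KO 2 and TSP2KO 3, against 150, 64.3 and 400 in WT 1, WT 2 and the library labelled WT 3. TSP2KO 3 was lowest and the library labelled WT 3 highest, with the other 4 libraries between them. Cxcl16 was 2.09-fold lower in value with all libraries (log2 fold change -1.06, SE 0.87, limma adjusted p = 0.755) and 1.31-fold lower without that labelled WT 3 (log2 fold change -0.39, SE 0.82). The log2 fold change was -0.21 without TSP2KO 3 and -1.70 without WT 2. It overlaps Zmynd15 on the other strand by 552 bases, a gene with at most 14.9 normalised reads in any library. TSP2KO 3 was the lowest library, or tied for lowest, for 7 of the 9 listed members, against 19.9% of all tested genes. The 7 include Cxcl2 and Cxcl9, which were not tested and count through ties at 0. The tested ones are Cxcl1, Cxcl5, Cxcl10, Cxcl12 and Cxcl16, with Cxcl10 at 11.6 in TSP2KO 3 beside 11.7 in TSP2KO 2.

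Set per kilobase of exon, the order of the members differed between libraries. Cxcl12 made up 57.2%, 68.5% and 40.0% of the summed level of the 9 listed genes in TSP2KO 1, TSP2KO 2 and TSP2KO 3. Its share was 73.2%, 82.2% and 30.7% in WT 1, WT 2 and the library labelled WT 3. It came first in every library but that labelled WT 3, where Cxcl5 led with 48.0%. Ackr3 came second in all 3 TSP2KO libraries, with 14.9%, 12.2% and 38.3%. Cxcl5 had shares of 3.01%, 1.88% and 1.68% in TSP2KO 1, TSP2KO 2 and TSP2KO 3, against 14.4% and 4.06% in WT 1 and WT 2. These levels divide by all annotated exon bases, 8176 for Cxcl12 with its long alternative ends and 1863 for Cxcl5, and so understate Cxcl12 if short transcripts prevail. By mean level per kilobase the order in TSP2KO was Cxcl12 (224), Ackr3 (65.2), Cxcl16 (32.6), Cxcl1 (28.6), Cxcl14 (10.7), Cxcl5 (8.79), Cxcl10 (6.94), Cxcl2 (0.271) and Cxcl9 (0). In WT it was Cxcl12 (1591), Cxcl5 (889), Cxcl1 (257), Ackr3 (155), Cxcl16 (67.8), Cxcl10 (26.5), Cxcl14 (4.79), Cxcl2 (3.70) and Cxcl9 (1.13). With WT 1 and WT 2 alone the means were 1678 for Cxcl12, 227 for Cxcl5, 149 for Ackr3, 68.7 for Cxcl1 and 35.5 for Cxcl16, so that Ackr3 stood above Cxcl1. Among the first 5 of each order over 3 libraries, the libraries of neighbours overlapped in every pair except Ackr3 and Cxcl16 in TSP2KO.

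**Figure D4:**
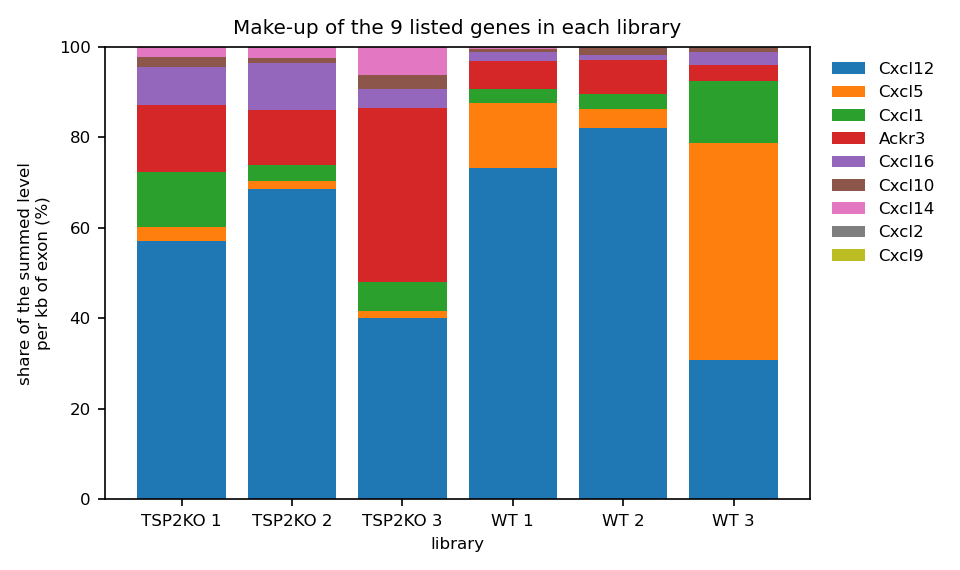
Share of each of the 9 listed genes in their summed level per kilobase of exon, in percent, with 1 bar for each library and TSP2KO libraries on the left. Cxcl12 is the largest part in 5 libraries, and Cxcl5 is the largest in the library labelled WT 3, at 48.0%.

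Receptors for these chemokines were sparse. Of 7 receptor genes considered, 5 were listed and 2 tested. Cxcr4, the signalling receptor of Cxcl12, had 44.8, 44.8 and 12.5 normalised reads in TSP2KO 1, TSP2KO 2 and TSP2KO 3, against 23.2, 11.8 and 110 in WT 1, WT 2 and the library labelled WT 3. Its groups overlapped, and the log2 fold change of -0.09 (SE 0.87; limma adjusted p = 0.981) was 0.79 without the library labelled WT 3, 0.49 without TSP2KO 3 and -0.77 without WT 2. Cxcr2, the receptor of ELR chemokines, reached at most 2.57 normalised reads in any library, and Cxcr3, the receptor of Cxcl9 and Cxcl10, at most 2.30.

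Cxcr6, the receptor of Cxcl16, was the only receptor gene tested besides Cxcr4, with 46.5, 91.7 and 89.0 normalised reads in TSP2KO 1, TSP2KO 2 and TSP2KO 3, against 5.15, 5.88 and 21.2 in WT 1, WT 2 and the library labelled WT 3. The groups did not overlap, and the library labelled WT 3 was the highest of WT. Cxcr6 had a log2 fold change of 2.91 (SE 0.58; limma adjusted p = 0.165), and it passed with the library labelled WT 3 left out (limma adjusted p = 0.0160, in a range of 0.0160 to 0.554 over all alternatives). Cxcr6 lies wholly within Fyco1 on the other strand, which had 983 to 1770 normalised reads in the 6 libraries, so its value is uncertain. Lymphocyte markers, of which 3 of 9 were listed, summed to 6.32, 23.5 and 52.5 in TSP2KO 1, TSP2KO 2 and TSP2KO 3, and to 7.73, 4.32 and 13.5 in WT 1, WT 2 and the library labelled WT 3. Trac carried most of the TSP2KO sums, with 5.75, 20.1 and 49.9 in TSP2KO 1, TSP2KO 2 and TSP2KO 3. It had 4.64, 1.96 and 1.92 in WT 1, WT 2 and the library labelled WT 3. Cd4 went the other way without overlap, at 0, 1.12 and 1.78 in TSP2KO against 3.09, 2.35 and 10.9 in WT. Ms4a1 reached at most 2.24 in any library. The part of these markers in the Cxcr6 values was not tested.

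Around the chemokines, 7 lists held tested genes of the pathway, and none of their genes passed with all 6 libraries. Without the library labelled WT 3, 9 of the 92 tested genes were lower and 2 higher past the threshold, beside 2.75% and 2.43% of all tested genes in that fit. Genes named below without a remark that they passed there did not pass in either fit. Of 21 inputs and feedback genes of NF-kappaB, the factor that drives the ELR chemokines, all were tested and 19 had a negative log2 fold change, with a median of -0.38 and 6 lower at an unadjusted p under 0.05. Over all tested genes 51.5% were negative, the median was -0.01 and 6.09% were lower at that p, a background that stands beside the lists below too. Il1r1, the signalling receptor of interleukin-1, had 593, 578 and 496 normalised reads in TSP2KO 1, TSP2KO 2 and TSP2KO 3, against 2853, 1582 and 3567 in WT 1, WT 2 and the library labelled WT 3. The groups were well apart, with the library labelled WT 3 highest, as in Cxcl1 and Cxcl5. Its log2 fold change was -2.19 (SE 0.30; limma adjusted p = 0.0974), and -1.94 without that library (limma adjusted p = 0.0186, in a range of 0.0186 to 0.450 over all alternatives), where it passed. Il1r1 overlaps the predicted gene Gm38070 on the same strand, so its value is uncertain. Gm38070 itself had 11.5 to 26.7 normalised reads.

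Tlr2, a receptor for bacterial lipopeptides that feeds the same factor, had 395, 398 and 340 normalised reads in TSP2KO 1, TSP2KO 2 and TSP2KO 3, against 663, 799 and 1122 in WT 1, WT 2 and the library labelled WT 3. Its log2 fold change was -1.16 (SE 0.23; limma adjusted p = 0.162), and it passed without that library. Birc3, an inhibitor of apoptosis and NF-kappaB target, had a log2 fold change of -0.95 (SE 0.22; limma adjusted p = 0.209). The part of Il1r1 and Tlr2 in the chemokine values was not tested.

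Of 13 interferon inputs and factors, 12 were tested, 10 had a negative log2 fold change, with a median of -0.53, and 5 were lower at an unadjusted p under 0.05. Ifngr1, a chain of the interferon-gamma receptor, had a log2 fold change of -0.58 (SE 0.17; limma adjusted p = 0.318), and Irf9, a transcription factor of the type I interferon response, one of -1.58 (SE 0.53; limma adjusted p = 0.384). Irf9 overlaps Rnf31 on the same strand by 123 bases, so its value is uncertain. Rnf31 had 109 to 283 normalised reads. Irf7, an interferon-induced factor, had 73.0, 449.8 and 53.4 normalised reads in TSP2KO 1, TSP2KO 2 and TSP2KO 3, against 549.5, 1064 and 344 in WT 1, WT 2 and the library labelled WT 3. Its groups overlapped through TSP2KO 2, which the groups of Cxcl10 did not do. Irf7 had a log2 fold change of -2.27 (SE 0.81; limma adjusted p = 0.412).

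Genes for proteases that trim or shed chemokines had a median log2 fold change of -0.89 over 12 tested of 14, with 10 negative and 6 lower at an unadjusted p under 0.05, beside 51.5% negative and 6.09% lower over all tested genes. Mmp12, the macrophage elastase, had 64.9, 38.6 and 12.5 normalised reads in TSP2KO 1, TSP2KO 2 and TSP2KO 3, against 450, 367 and 234 in WT 1, WT 2 and the library labelled WT 3. The groups were apart, in the same libraries in which macrophage markers summed to 749 to 869 and 3498 to 6229. Its log2 fold change was -3.37 (SE 0.58; limma adjusted p = 0.123). Mmp13, a collagenase, had a log2 fold change of -3.25 (SE 0.93; limma adjusted p = 0.304), and it passed with Mmp12 without the library labelled WT 3. Adam17, a sheddase of membrane proteins, had 2201, 1920 and 2227 normalised reads in TSP2KO 1, TSP2KO 2 and TSP2KO 3, against 3097, 4034 and 3249 in WT 1, WT 2 and the library labelled WT 3, a log2 fold change of -0.70 (SE 0.18; limma adjusted p = 0.245).

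Heparan sulfate holds chemokines at the cell surface, and of its 21 genes of synthesis and core proteins 20 were tested, with 10 negative, 10 positive and a median log2 fold change of 0.01. Hs3st1, a 3-O-sulfotransferase, stood apart with 15.5, 16.2 and 11.6 normalised reads in TSP2KO 1, TSP2KO 2 and TSP2KO 3, against 156, 86.7 and 57.1 in WT 1, WT 2 and the library labelled WT 3. Its log2 fold change was -2.60 (SE 0.43; limma adjusted p = 0.111), and -2.94 without that library, where it passed (limma adjusted p = 0.0176, in a range of 0.0176 to 0.470 over all alternatives). Gpc1, the core protein glypican-1, and Hs2st1, a 2-O-sulfotransferase, had log2 fold changes of -1.10 and -0.46 (limma adjusted p = 0.513 and 0.684). Sdc2, the core protein syndecan-2, chosen after its values were seen, was the other gene of this list that passed without the library labelled WT 3, with a log2 fold change of -0.69 with all libraries and -1.31 without it.

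Signalling genes below the receptors had a median log2 fold change of -0.04 over 15 genes, with 1 lower and 1 higher at an unadjusted p under 0.05. Rgs4, which shortens G protein signals, was the higher of these, with 817, 477 and 2562 normalised reads in TSP2KO 1, TSP2KO 2 and TSP2KO 3, against 307, 253 and 206 in WT 1, WT 2 and the library labelled WT 3 (log2 fold change 1.98, SE 0.57, limma adjusted p = 0.301). Ptk2, focal adhesion kinase, and Jak2, a cytokine receptor kinase, had log2 fold changes of -0.51 and -0.47 (limma adjusted p = 0.507 and 0.531). Ptk2 overlaps the predicted gene Gm7908, at 25.0 to 47.2 normalised reads, on the same strand. None of the 15 passed without the library labelled WT 3.

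Genes that mark the Cxcl12-rich reticular stroma of bone marrow were divided in direction, with 6 of 10 tested negative and a median log2 fold change of -0.24. Pdgfra, the platelet-derived growth factor receptor alpha that marks fibroblasts, had 8460, 4442 and 5845 normalised reads in TSP2KO 1, TSP2KO 2 and TSP2KO 3, against 21543, 14915 and 14328 in WT 1, WT 2 and the library labelled WT 3. The groups were apart, with a log2 fold change of -1.46 (SE 0.29; limma adjusted p = 0.162). Igf1, an insulin-like growth factor, had one of -0.58 (SE 0.21; limma adjusted p = 0.412). Lepr, the leptin receptor, was higher in value, with 1122, 361 and 655 normalised reads in TSP2KO 1, TSP2KO 2 and TSP2KO 3, against 129, 107 and 514 in WT 1, WT 2 and the library labelled WT 3 (log2 fold change 1.73, SE 0.65, limma adjusted p = 0.442). The groups of Lepr overlapped through the library labelled WT 3. Without that library Pdgfra and Igf1 passed as lower and Lepr as higher.

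**Figure D5:**
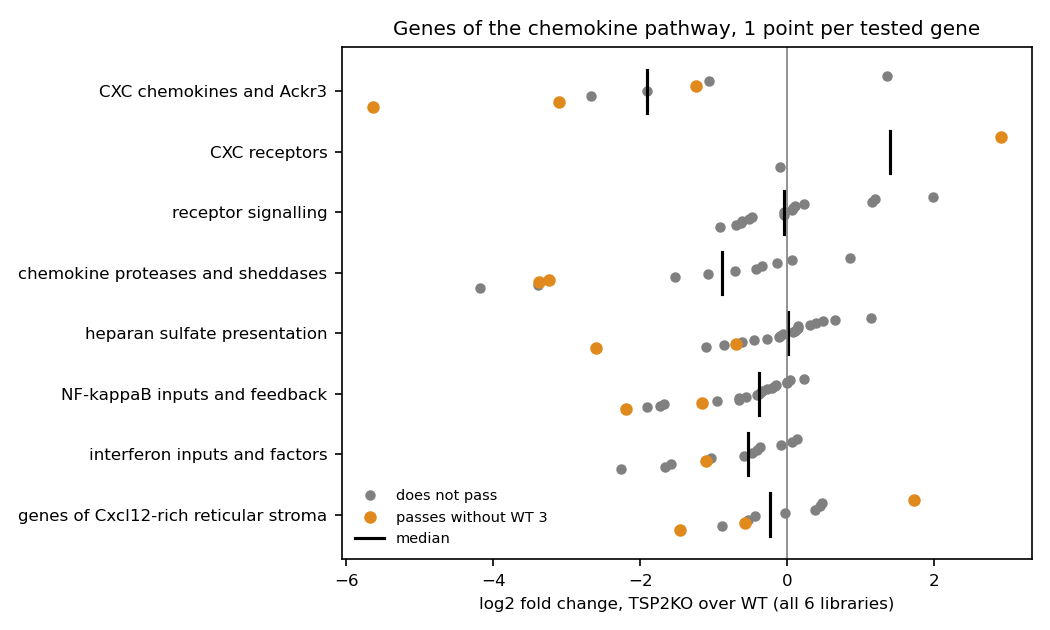
Log2 fold change of TSP2KO over WT from all 6 libraries, with 1 point for each tested gene of the members and of 7 pathway lists and a black line at the median of each list; orange points pass the threshold without the library labelled WT 3, and grey points do not. No gene shown passes with all 6 libraries, and the members have the most negative median, -1.91. Members and lists were chosen with earlier results of these data known.

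Over the 6 libraries, the genes most like Cxcl12 by Pearson correlation of log2 values, among 11515 genes with a mean of at least 50, were Cyp2f2 (0.996), Gda (0.993), Eps8 (0.991), Gnptab (0.991) and Atp10b (0.991). Cyp2f2, a cytochrome P450, had 21.8, 48.1 and 0.890 normalised reads in TSP2KO 1, TSP2KO 2 and TSP2KO 3, against 723, 342 and 373 in WT 1, WT 2 and the library labelled WT 3. The genes most like Cxcl1 were S1pr2 (0.988), Glul (0.986), Tshz1 (0.984), Pcdh1 (0.984) and Srgap3 (0.984). Among the members themselves the correlation was 0.93 between Cxcl1 and Cxcl5, 0.88 between Cxcl12 and Ackr3, and 0.73 between Cxcl12 and Cxcl1. These are descriptions over 6 libraries in 2 groups, so that any gene that differs between the groups shares part of the pattern.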

How the data were processed

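RNA was sequenced in bulk from dermal fibroblasts, with 3 libraries labelled TSP2KO and 3 labelled WT, and a stranded poly(A) kit, per the labels' protocols. The deposited values are a normalised signal per gene for 23407 genes, called normalised reads here. The submitters' processing notes list the build mm10 and the tools Cell Ranger, Seurat 5.0.3, Partek, STAR and DESeq2, without saying which made these values. How reads were counted, by strand or not, and with which annotation is not given in the sources used here. Low values lay on a constant step per library, taken as 1 read: 76.3% to 78.7% of values of up to 200 reads were whole multiples within 0.02 of a read. Whole reads were therefore not recovered, and count tests were not run. Read numbers per gene and depths are values divided by that step. Coordinates of 96.4% of genes equalled GENCODE M21 after taking 1 base off the stop. Columns were matched by genotype and replicate number, since library suffixes differ from the labels.

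On the scale of log2(value + 1), limma 3.58.1 in R 4.3.3 with a mean-variance trend gave a two-sided test of TSP2KO over WT for genes with a mean of at least 10; fold changes on this scale understate those of low genes. P-values were adjusted over all genes tested by Benjamini-Hochberg, with a threshold of 0.05. All members and Thbs2 are named, with up to 3 genes of smallest p per list where none passed, and the 5 genes most like Cxcl12 and Cxcl1. Members and lists were chosen with earlier results of these data known. Alternatives were pseudocounts of 0.1 and 10, no filter, a mean of at least 100, scaling by trimmed means of log ratios, limma-voom, a replicate block, and leaving out each library. The test was tested on simulated data. Intervals and floors cover counting error only.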

Additional observations from a re-analysis of the deposited data

How the results depend on the processing

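With all 6 libraries, 9 genes were lower and 0 higher past the threshold. The number lower was 0 with a pseudocount of 0.1, without a filter, with a mean of at least 100 and by limma-voom, and 14 with a pseudocount of 10. Leaving out a library gave 0 to 404 lower and 0 to 357 higher, every call being made without the library labelled WT 3. In the same fits 0 to 3 members were lower, and 0 to 9 pathway genes were lower and 0 to 2 higher. The log2 fold change lay between -6.87 and -4.38 for Cxcl5, between -3.52 and -2.39 for Cxcl12 and between -1.37 and -1.16 for Ackr3 with a library left out, and each of them passed in the fit without the library labelled WT 3 and in no other. The range over the same fits was -3.35 to -1.59 for Cxcl1, -2.23 to -1.72 for Cxcl10, 0.65 to 1.79 for Cxcl14 and -1.70 to -0.21 for Cxcl16. Cxcr4 changed sign, to 0.49 without TSP2KO 3 and 0.79 without the library labelled WT 3, and its lowest value was -0.77, without WT 2. All 7 tested members kept their direction under all 13 alternatives, fits with a library left out among them, except that a member with a mean under 100 has no value under that filter. The causes were not tested.

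Libraries with the same number deviated from their group means in opposite directions, with correlations across genes of -0.42, -0.25 and -0.39. No TSP2KO library correlated best with its own number. These values show no sign that the numbers pair the libraries, although 3 libraries per group are too few to exclude it. With the replicate block 0 genes passed, lower or higher. Values under about 20 normalised reads rest on few reads. They occur in Cxcl2, Cxcl9 and Cxcl14, and in some TSP2KO libraries for Cxcl5 and Cxcl10.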

Other observations

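Ackr4 and Ackr2, further atypical chemokine receptors, were chosen after their values were seen. Ackr1 was among the 7 receptor genes considered above. Ackr4, a scavenger of CC chemokines, had 1107, 974 and 202 normalised reads in TSP2KO 1, TSP2KO 2 and TSP2KO 3, against 1157, 600 and 480 in WT 1, WT 2 and the library labelled WT 3. Its groups overlapped, and TSP2KO 3 was the lowest library, as it was for Cxcl12. Ackr2, a scavenger of inflammatory CC chemokines, had 16.1, 5.03 and 0 normalised reads in TSP2KO 1, TSP2KO 2 and TSP2KO 3, against 2.58, 0.392 and 23.7 in WT 1, WT 2 and the library labelled WT 3. Ackr1, which holds both CC and CXC chemokines, had 4.60, 3.92 and 0 normalised reads in TSP2KO 1, TSP2KO 2 and TSP2KO 3, against 5.15, 0.785 and 36.9 in WT 1, WT 2 and the library labelled WT 3. In Ackr1 and Ackr2 the library labelled WT 3 was highest, and endothelial markers, which summed to 2551, 2262 and 582 in TSP2KO 1, TSP2KO 2 and TSP2KO 3, were highest there too, at 5210, against 1139 and 606 in WT 1 and WT 2. Their part was not tested.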
